A study of Mus musculus with 8 samples.

Results

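Small leucine-rich proteoglycans (SLRPs) were examined in RNA-seq of the mouse cochlea, and the group consisted of the 10 genes Dcn, Bgn, Lum, Fmod, Omd, Ogn, Prelp, Kera, Epyc and Aspn, found by their symbols among 21895 listed genes. Cochlear RNA came from WT mice and from miR-29a-/- mice (KO) on the C57BL/6 background, with 4 libraries per group that are numbered 1 to 4. The age of the mice is 21 days in the series record and 2 months in the methods of the paper, both sexes were used in the study, and the sources do not say how many animals went into a library. The study asked which genes differ in a cochlea that lacks miR-29a, a microRNA known for repressing genes of the extracellular matrix (ECM). Expression was given as FPKM, the number of sequenced fragments scaled to transcript length and to the mapped fragments of the library.

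SLRPs are secreted proteins whose core is built of leucine-rich repeats. They lie on collagen fibrils, where they influence fibril diameter and spacing, and several of them carry sulfated sugar chains. Decorin (Dcn), biglycan (Bgn) and asporin (Aspn) form the first class of the family. Lumican (Lum), fibromodulin (Fmod), osteomodulin (Omd), keratocan (Kera) and Prelp form the second class, and epiphycan (Epyc) and osteoglycin (Ogn) belong to the third. In the cochlea, epiphycan is known from supporting cells and is needed for normal hearing, and fibril-rich matrix lies in the spiral ligament, the spiral limbus, the basilar membrane and the surrounding bone.

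The mature microRNAs of the miR-29 family share their seed, the bases 2 to 8 that pair with a target, and are shown in RefSeq's sequences with the seed in capitals.
mmu-miR-29a-3p: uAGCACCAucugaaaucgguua
mmu-miR-29b-3p: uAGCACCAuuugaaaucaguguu
mmu-miR-29c-3p: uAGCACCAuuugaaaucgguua
The sequence that pairs with this seed on the transcript strand, TGGTGCT in DNA letters, was searched in the longest annotated 3′-UTR of each gene (GENCODE mouse release 21, GRCm38). It occurred in 1 of the 10 SLRPs, in 9 of 14 collagens of the fibrils that SLRPs bind, and in 2294 of 14832 tested genes with a 3′-UTR (15.5%). Prelp carried the match, 1792 to 1798 bases into its 3′-UTR (length 2302), on the minus strand at chr1:133910808-133910814. For comparison, the first match of 3 of those collagens, which were chosen after their values were seen, is shown in the same way, with the 15 bases before it and the base after it, and with the match in capitals. The match of Col1a1 lies at chr11:94952538-94952544, that of Col3a1 at chr1:45348982-45348988 and that of Col5a1 at chr2:28038004-28038010, all on the plus strand.
Prelp: cggctgaaagcaaccTGGTGCTa
Col1a1: gtgggaaggaatttcTGGTGCTa
Col3a1: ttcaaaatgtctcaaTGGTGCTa
Col5a1: ataactatgaacattTGGTGCTg
By the unadjusted threshold used below, Col1a1, Col3a1, Col5a1, Col5a2, Col6a2, Col6a3 and Col11a1 had a match and were higher in KO. Col1a2 and Col6a1 were higher without a match. Col2a1 and Col5a3 had a match and did not pass, and Col11a2, Col12a1 and Col14a1 had no match and did not pass. A match in these letters is a description of the sequence, and its use by miR-29a was not tested. The median 3′-UTR length was 1036 bases in the 10 SLRPs, 921 in the 14 collagens and 1181 over the tested genes.

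All SLRPs other than Bgn lie in groups on 3 chromosomes in GRCm38. Dcn, Lum, Kera and Epyc lie within 202.8 kb of chromosome 10 (from 97479609 to 97682454), Aspn, Omd and Ogn within 119.7 kb of chromosome 13 together with the related gene Ecm2 (from 49504810 to 49624501), and Prelp and Fmod within 151.1 kb of chromosome 1 together with the related gene Optc (from 133897199 to 134048277). Bgn lies on chromosome X from 73483602 to 73495933. At most 3.70% of the 50-base words in the transcripts of an SLRP, those of Omd, also occur in another gene. Exons of Epyc overlap those of Gm10754 on the other strand by 1041 bases and exons of Prelp overlap those of Gm15851 by 350 bases. The libraries were strand-specific, but it is not stated whether strand was used in counting, so reads of these pairs may not have been told apart.

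From the steps between low FPKM values of genes with a single annotated transcript, the libraries were estimated to hold between 21600000 and 26400000 fragments. WT1 and WT3 stood apart. Across genes, which cannot count as independent replicates, Pearson's r ran from 0.725 to 0.962 for pairs of WT libraries and from 0.924 to 0.957 for pairs of KO libraries. Transcripts of 13 of 13 cochlear epithelium markers were present, with a summed FPKM of 236.1 to 553.5 in WT and 288.0 to 423.6 in KO. The summed FPKM of 11 osteoblast and osteocyte markers was 53.0 in WT3, 275.1 and 285.4 in WT4 and WT2, 655.6 in WT1 and 303.9 to 534.5 in KO, and that of 11 marrow and blood cell markers ran from 359.3 in WT3 to 14370 in WT1. The deleted miR-29a itself was not analysed here.

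Dcn was the most abundant SLRP transcript of the cochlea and Kera was close to the limit of detection. On the FPKM scale, which allows for transcript length, the mean over the 8 libraries was 190.4 ± 36.7 (SD, n = 8) for Dcn, 74.9 ± 25.5 for Bgn, 52.5 ± 11.7 for Ogn, 43.4 ± 14.4 for Epyc and 32.1 ± 5.52 for Lum. It was 18.2 ± 3.62 for Prelp, 15.6 ± 3.50 for Fmod, 11.3 ± 5.84 for Omd, 4.47 ± 2.01 for Aspn and 0.120 ± 0.121 for Kera. Dcn exceeded Bgn, Lum exceeded Prelp and Aspn exceeded Kera without overlap of their values over the libraries. The other neighbors in this order, such as Ogn and Epyc or Prelp and Fmod, overlapped, and their order held in 6 to 8 of the 8 libraries. Dcn ranked between 75 and 137 among all listed genes, depending on the library. Dcn alone made up 39.3% to 47.3% of the summed SLRP FPKM of a library, and Bgn made up 7.43% in WT3 and 15.8% to 22.0% in the other libraries.

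**Figure D1:**
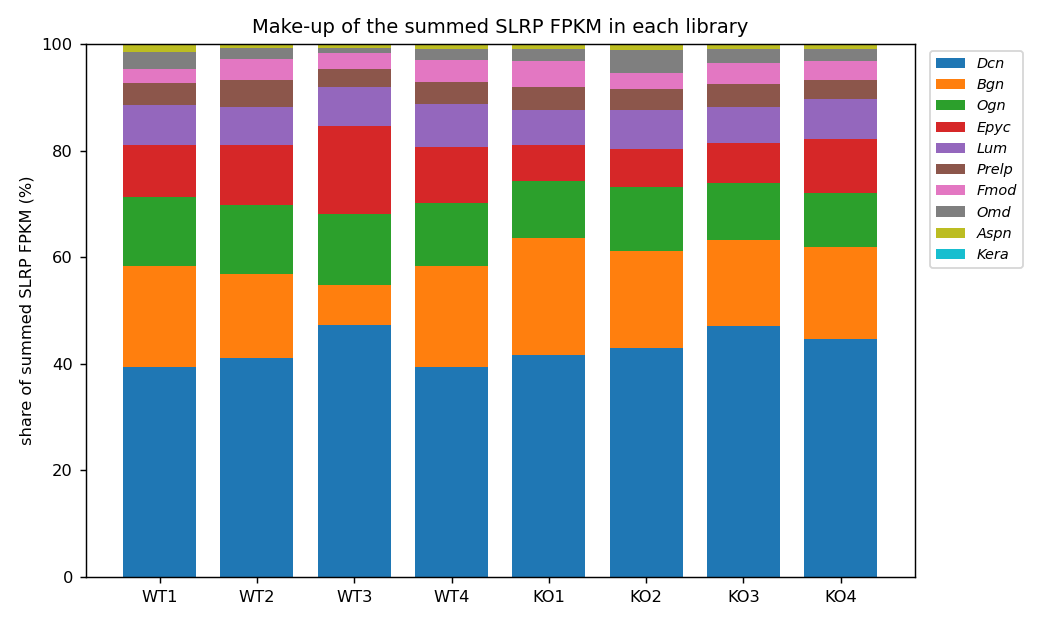
Stacked bars give the share of each of the 10 SLRPs in the summed SLRP FPKM (percent, vertical axis) for each library (horizontal axis, WT1 to WT4 and KO1 to KO4). Dcn takes the largest part of every bar, Bgn is narrowest in WT3 (7.43%) and Epyc is widest there (16.7%), while Kera is too low to be seen.

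None of the 9 SLRPs that could be tested differed significantly between KO and WT. Genes whose FPKM averaged 0.5 or more were tested with limma on log2(FPKM + 0.1), which understates the change of low genes. A gene was counted as changed at an unadjusted two-sided p-value under 0.05, the threshold of the study. The study applied that threshold to another test, DESeq2, and to fewer libraries per group, so its gene counts and those given here are not comparable. By this criterion 0 of 9 SLRPs changed, and 5.12% of the 14990 tested genes did (767 genes, 4.61% higher and 0.507% lower in KO). Among only 9 genes, a count of 0 lies near that share. With Benjamini-Hochberg adjustment over all tested genes, limma gave 0 genes with a p-value under 0.05. The median log2 fold change of the SLRPs was 0.22, with 7 of 9 above 0. Over all tested genes the median was 0.10, with 66.5% above 0, so the SLRP count lies near that share. With median-ratio scaling, 5 of 9 SLRPs were above 0 (median 0.12), and with quantile normalization 6 of 9 were (median 0.04). The WT and KO values of all 9 tested SLRPs overlapped, and 3.5% of all tested genes had groups that did not overlap.

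**Figure D2:**
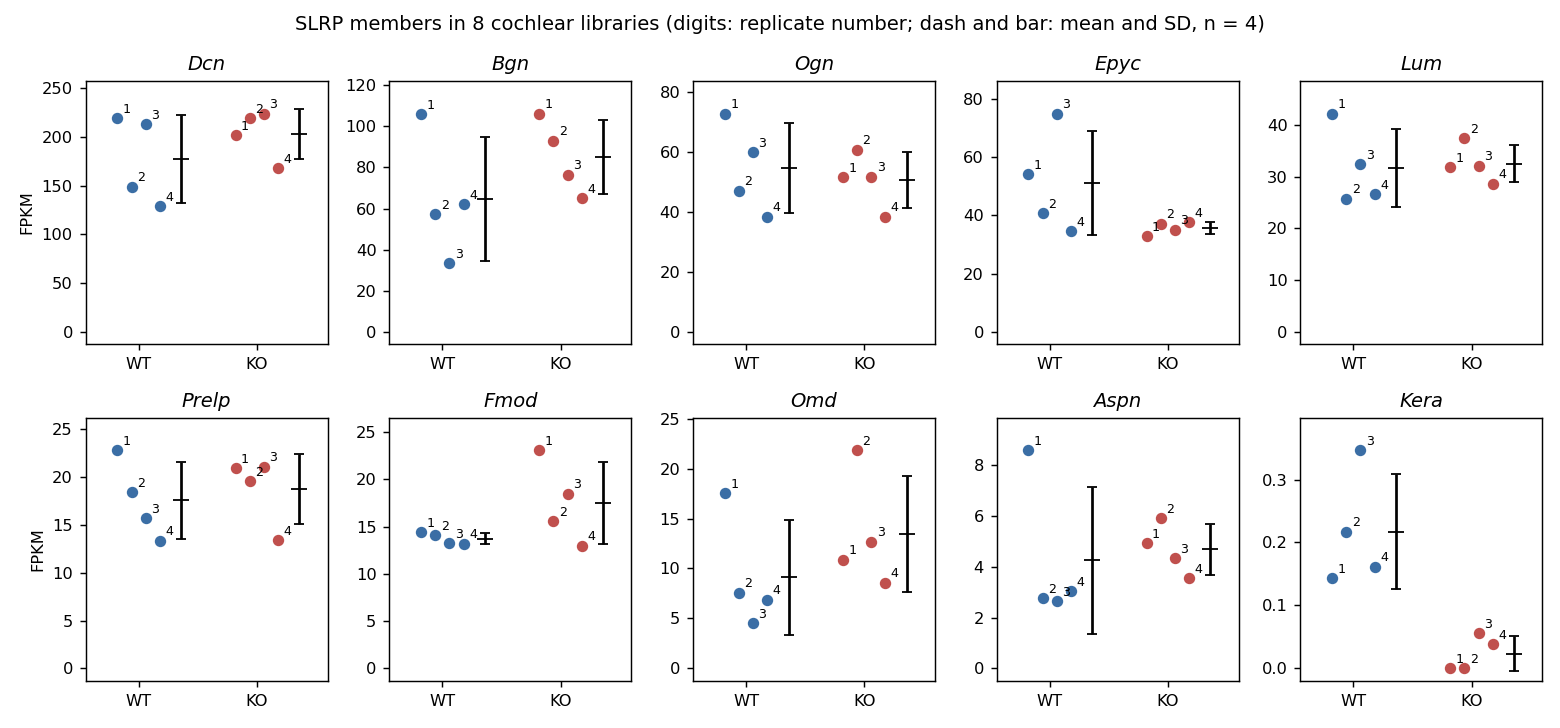
Points give the FPKM (vertical axis, separate scale per gene) of the 10 SLRPs in the 4 WT (blue) and 4 KO (red) libraries, with digits for the replicate number and a dash and bar for the mean and SD (n = 4). WT and KO values overlap for every gene other than Kera, and the spread of Epyc is wide in WT (34.65 to 74.97) and narrow in KO (32.9 to 37.7).

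Of the first class, Dcn, which binds collagen and TGF-β, had an FPKM of 219.1, 149.1, 213.1 and 128.8 in WT1 to WT4 and of 201.7, 219.2, 224.0 and 167.8 in KO1 to KO4. WT2 and WT4 were lower than every KO library, while WT1 and WT3 lay within the KO range. The log2 fold change of Dcn was 0.22 (SE 0.23, 95% interval -0.29 to 0.74, limma adjusted p = 0.968). For Bgn, which is abundant in bone and other skeletal matrix, FPKM was 105.9, 57.15, 33.5 and 62.0 in WT1 to WT4 and 106.2, 93.1, 76.4 and 65.1 in KO1 to KO4. Each KO library thus exceeded WT2, WT3 and WT4, and WT1 was as high as KO1. The log2 fold change of Bgn was 0.49 (SE 0.33, 95% interval -0.26 to 1.24, adjusted p = 0.947 with limma). Aspn, which lacks the sugar chains of its relatives and is known from cartilage and tendon, had an FPKM of 8.58 in WT1, 2.64 to 3.04 in WT2 to WT4 and 3.56 to 5.92 in KO. WT1 was thus the highest of all 8 libraries and the other WT libraries were the lowest. Its log2 fold change was 0.30 (95% interval -0.56 to 1.16, limma adjusted p = 0.973).

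Of the second class, Omd, a protein of mineralized tissue made by osteoblasts, had an FPKM of 17.5, 7.57, 4.52 and 6.88 in WT1 to WT4 and of 10.9, 21.8, 12.7 and 8.58 in KO1 to KO4. As for Bgn and Aspn, 3 WT libraries lay below every KO library, and WT1 lay among the KO values of Omd. The log2 fold change of Omd, 0.66 (SE 0.43, 95% interval -0.31 to 1.63, limma adjusted p = 0.947), was the highest of the group. Fmod, which guides collagen fibril assembly in tendon and cartilage, had an FPKM of 14.4, 14.1, 13.3 and 13.2 in WT1 to WT4 and of 23.1, 15.6, 18.5 and 12.96 in KO1 to KO4. The WT libraries hardly varied, 3 KO libraries lay above them and KO4 lay below them. Its log2 fold change was 0.32 (SE 0.18, 95% interval -0.09 to 0.73, limma adjusted p = 0.947). For Lum, which regulates fibrils in cornea and skin, FPKM was 25.7 to 42.15 in WT and 28.6 to 37.4 in KO. For Prelp, an SLRP with a basic, heparin-binding end and the only one with the seed match, FPKM was 13.3 to 22.8 in WT and 13.4 to 21.1 in KO. Neither differed by more than its spread, with log2 fold changes of 0.06 for Lum (95% interval -0.36 to 0.47) and 0.10 for Prelp (-0.39 to 0.58), and the sign of both turned when the libraries were rescaled by their median ratio (-0.04 and -0.00088).

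Kera, known as a keratan sulfate proteoglycan of the cornea, was below the limit for testing, and its groups did not overlap. Its FPKM was 0.143, 0.217, 0.346 and 0.162 in WT1 to WT4 and 0, 0, 0.0555 and 0.0388 in KO1 to KO4. These values correspond to about 8.51, 11, 18 and 7.96 fragments in the WT libraries and to 0, 0, 2.97 and 1.99 fragments in the KO libraries. The value of WT1 was not near a whole number. The sum after rounding was 46 fragments in WT (exact 95% Poisson interval 33.7 to 61.4) and 5 in KO (1.62 to 11.7), and these intervals cover counting error only. An exact two-sided permutation test of log2(FPKM + 0.1) gave p = 0.0286, the smallest that 4 against 4 libraries allow. Groups that do not overlap always give this value, so the test adds nothing to the lack of overlap. Without the limit on low values, limma gave a log2 fold change of -1.35 (SE 0.24, unadjusted p = 0.000894, adjusted p = 0.616). In that fit 5.16% of all genes passed the unadjusted threshold. The size of this change depends on the pseudocount of 0.1, which exceeds every KO value of Kera. With a pseudocount of 1 the log2 difference was -0.25, while the mean FPKM in WT was 9.21 times that in KO. Of 1904 genes with a mean FPKM of 0.05 to 0.5, 0.735% had KO values that all lay below the WT values. Kera is among these genes through its WT values (mean 0.217, against 0.0236 in KO). Here as in the other comparisons of whole cochleae, fewer cells of a type and less RNA per cell cannot be told apart.

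Of the third class, Epyc had an FPKM of 54.15, 40.8, 74.97 and 34.65 in WT1 to WT4 and of 32.9, 37.1, 35.03 and 37.7 in KO1 to KO4. WT1, WT2 and WT3 lay above every KO library and WT4 lay within the KO range. The log2 fold change of Epyc was -0.46 (SE 0.23, 95% interval -0.98 to 0.07, limma unadjusted p = 0.0796, adjusted p = 0.947), the lowest of the group. In a fit of the 6 libraries numbered 1 to 3 it was -0.65, with a limma adjusted p of 0.981, and after quantile normalization it was -0.54. Both fits passed the unadjusted threshold, as did 4.51% and 6.17% of all genes. Whether reads from Gm10754 on the other strand entered this value was not tested. Ogn, a proteoglycan of bone and connective tissue, had an FPKM of 38.3 to 72.6 in WT and 38.3 to 60.7 in KO, and its log2 fold change of -0.08 (95% interval -0.60 to 0.44) turned to 0.07 without WT1.

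**Figure D3:**
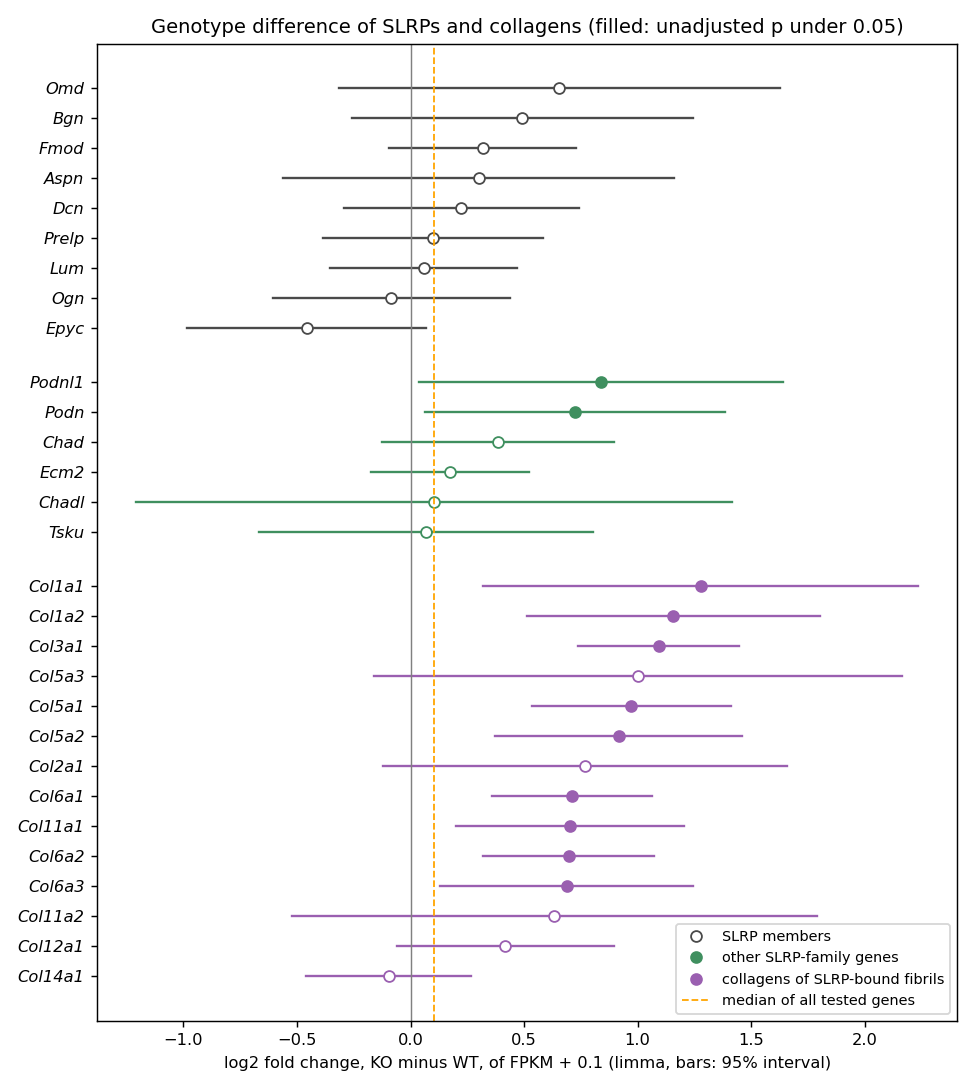
Log2 fold changes (horizontal axis, KO minus WT, limma on FPKM + 0.1, with 95% intervals) are shown for the 9 tested SLRPs, 6 other genes of the SLRP family and 14 collagens of SLRP-bound fibrils, with filled points at an unadjusted p-value under 0.05. All 9 SLRP intervals include 0, and 9 of the 14 collagens are filled and lie to the right, against 4.61% of all tested genes higher in KO.

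Many of the collagens that SLRPs bind were higher in KO, and the difference between the collagens and the SLRPs was not tested. Of 14 collagens, 9 were higher and 0 lower in KO, with a median log2 fold change of 0.74. These were Col1a1, Col1a2, Col3a1, Col5a1, Col5a2, Col6a1, Col6a2, Col6a3 and Col11a1, and their values did not overlap between the groups. Over all tested genes, 4.61% were higher in KO at the unadjusted threshold and 3.5% had groups that did not overlap. The collagens were listed with earlier results of these data known. For Col3a1, a fibril collagen of soft tissue, FPKM was 23.0, 30.8, 24.8 and 34.8 in WT1 to WT4 and 63.2, 58.2, 57.9 and 60.04 in KO1 to KO4, a log2 fold change of 1.09 (SE 0.16, limma adjusted p = 0.558). For Col1a1, the main fibril collagen of bone, FPKM was 144.7, 241.2, 64.1 and 239.3 in WT1 to WT4 and 281.5, 424.1, 371.7 and 417.9 in KO1 to KO4. The ratio of the summed SLRP FPKM to the summed collagen FPKM was 1.33, 0.494, 1.13 and 0.449 in WT1 to WT4 and 0.537, 0.425, 0.455 and 0.319 in KO1 to KO4. WT1 and WT3 had the highest ratios, and WT2 and WT4 lay among the KO libraries. The summed SLRP FPKM itself was 326.9 to 557.3 in WT and 376.1 to 510.4 in KO.

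Of the SLRP family, 8 other genes were listed by symbol, of which Optc and Nyx were too low to be tested. Podn and Podnl1, which encode podocan and its relative of the fifth class, were higher in KO by 0.72 (SE 0.29) and 0.84 (SE 0.35) on the log2 scale, each with an adjusted p of 0.947 by limma. Podn had an FPKM of 1.82, 1.34, 0.762 and 1.20 in WT1 to WT4 and of 2.45, 2.465, 1.79 and 1.75 in KO1 to KO4, so that WT1 alone lay within the KO range. For Podnl1, FPKM was 0.561 to 1.21 in WT and 0.936 to 2.20 in KO. Of 17 alternative settings, the call of Podn was lost in 8 and that of Podnl1 in 10, and both were lost with either rescaling, in the 6 libraries, and without WT3 or KO2. Podn was also lost without WT2, WT4 or KO1, and Podnl1 without WT1, KO3 or KO4. Chad, Ecm2, Chadl and Tsku did not pass, with log2 fold changes of 0.38, 0.17, 0.10 and 0.07.

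Genes that build or cut the proteoglycans were also listed by symbol. Over all tested genes, 4.61% were higher in KO at the unadjusted threshold and 3.5% had groups that did not overlap. Of 23 enzymes of the linker, chondroitin sulfate and dermatan sulfate chains, which Dcn and Bgn carry, 3 were higher and 0 lower in KO. They were Chst13 and Chst3, which add sulfate to chondroitin, with log2 fold changes of 1.58 (SE 0.31) and 1.16 (SE 0.29), and Chsy1, which extends the chain, with 0.35 (SE 0.13), a call that was lost in 6 of the 17 alternatives, among them either rescaling and leaving out WT3, KO2 or KO3. For Chst3, FPKM averaged 3.48 ± 0.987 over the WT and 8.02 ± 2.97 over the KO libraries (SD, n = 4), and Chst13 averaged 0.504 ± 0.172 and 1.69 ± 0.463. The WT and KO values of all 3 did not overlap, and limma's adjusted p-values were 0.922 to 0.947. Of 7 enzymes of keratan sulfate, which Lum, Fmod, Omd and Kera can carry, B4galt1 passed, with a log2 fold change of 0.40 and overlapping groups, and this call was lost in 11 of the 17 alternatives, among them either rescaling, the replicate block and leaving out any one of WT2, WT3, WT4, KO1, KO2 or KO3. Of 7 genes for tyrosine sulfation and the sulfate donor, 0 passed with limma at the unadjusted threshold. Among 13 tested proteases that cleave SLRPs and their enhancers, Mmp2 and Mmp14 were higher in KO, by 0.68 and 0.30 on the log2 scale, without overlap of the groups. Mmp2 passed in every setting tried, whereas Mmp14 was lost in 12 of the 17 alternatives, among them either rescaling, the replicate block, the 6 libraries and leaving out any one of WT1, WT3 or the 4 KO libraries. None of 12 ligands and receptors that bind SLRPs, such as Tgfb1, Tgfb2, Tgfb3, Tlr2, Tlr4 and Egfr, passed the unadjusted threshold with limma.

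Over all 8 libraries, the SLRPs did not vary as a unit. Over the 36 pairs of the 9 tested genes, Pearson's r of log2(FPKM + 0.1) over the 8 libraries had a median of 0.572 and ranged from -0.576 for Bgn with Epyc to 0.895 for Omd with Aspn. All 5 negative values belonged to pairs with Epyc. This picture depended on WT1 and WT3. Without them, r was positive for every pair that did not hold Epyc, from 0.39 for Fmod with Omd to 0.982 for Lum with Aspn. It was negative for every pair with Epyc, from -0.653 with Fmod to -0.0724 with Ogn. These are descriptions of libraries that share their genotype and tissue make-up, and they carry no test. In WT, the coefficient of variation of FPKM was 67.8% for Aspn, 63.0% for Omd, 46.7% for Bgn and 34.9% for Epyc, and 4.44% for Fmod. In KO, it was 21.2%, 43.0%, 21.3% and 6.12% for the first 4 genes and 24.7% for Fmod. Thus the tested SLRPs other than Fmod varied less among KO than among WT libraries. The share of all tested genes that did so was not counted. Over all tested genes, WT libraries were also less alike, with a lowest Pearson's r of 0.725 against 0.924 in KO. The lower spread in KO is therefore not shown to be particular to the SLRPs.

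Levels of Bgn, Omd and Aspn had the highest correlations with the summed FPKM of the 11 osteoblast and osteocyte markers over all 8 libraries. In WT3, where that sum was lowest (53.0), Bgn, Omd and Aspn had their lowest FPKM of all libraries. In WT1, where it was highest (655.6), Aspn had its highest FPKM, and Bgn and Omd had their second highest. The correlation of log2 values over the 8 libraries was 0.956 for Bgn (rho = 0.905), 0.856 for Omd (rho = 0.952) and 0.754 for Aspn (rho = 0.976), and 0.931, 0.869 and 0.953 without WT1 and WT3. For Dcn, Lum, Ogn, Prelp and Fmod, r was 0.105 to 0.556 over the 8 libraries, and without WT1 and WT3 it was 0.926, 0.923, 0.867, 0.792 and 0.793. With the summed FPKM of the 13 cochlear epithelium markers, r was -0.946 for Bgn, -0.883 for Aspn and -0.844 for Omd, and it was below 0 for each of the 9 SLRPs other than Epyc (0.393). Gjb2 and Gjb6 made up most of this epithelium sum, with 101.2 and 79.9 of 236.1 in WT1 and 241.3 and 159.9 of 553.5 in WT3. With the osteoblast and osteocyte sum, r of Epyc was -0.682 (rho = -0.167), and -0.479 without WT1 and WT3. Of the 11 markers, all had a log2 fold change above 0, as did 66.5% of all tested genes. Sost alone passed the unadjusted threshold (2.84, SE 1.23). This call was lost in 8 of the 17 alternatives, among them median-ratio scaling, the replicate block and leaving out any one of WT2, KO1, KO2 or KO3. The summed FPKM of marrow and blood cell markers was also lowest in WT3 (359.3) and highest in WT1 (14370). The part of the bone cell, marrow and epithelium markers in the SLRP values was not tested.

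**Figure D4:**
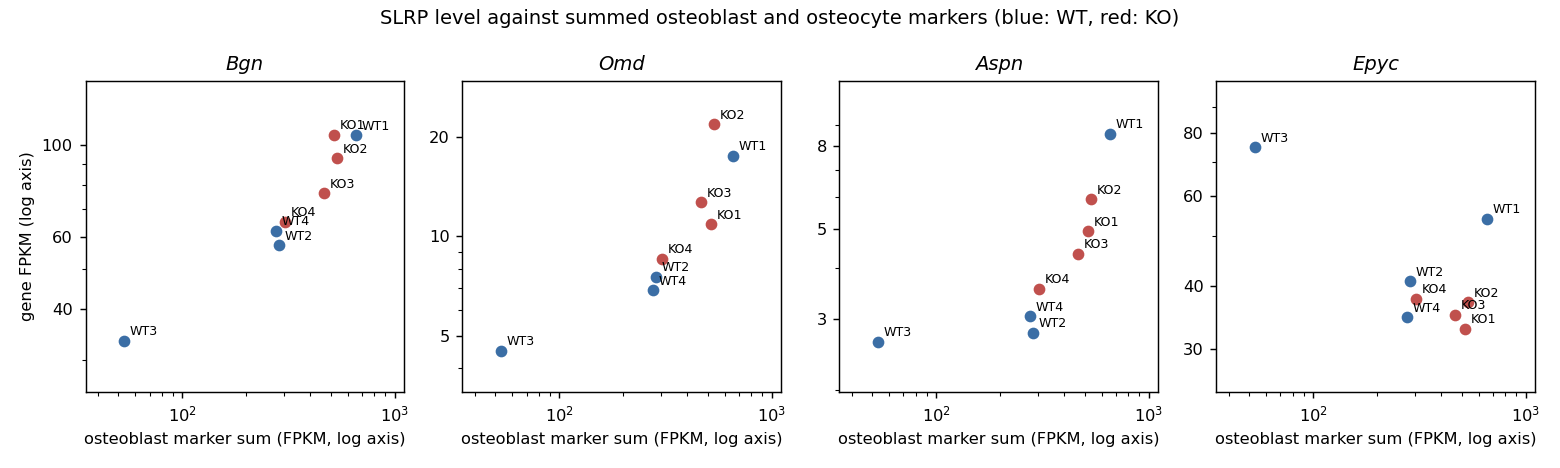
The FPKM of Bgn, Omd, Aspn and Epyc (vertical, log axis) is set against the summed FPKM of 11 osteoblast and osteocyte markers (horizontal, log axis) for each WT (blue) and KO (red) library. WT3 lies at the far left (53.0) and WT1 at the far right (655.6), and Bgn, Omd and Aspn are lowest in WT3, where Epyc is highest.

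The comparison of Bgn, Omd and Aspn depended on WT1 and WT3. Without WT3, their log2 fold changes fell to 0.22, 0.38 and 0.14, that of Epyc was -0.25, and no SLRP passed. Without WT1, these 3 of the 9 SLRPs passed the unadjusted threshold, with log2 fold changes of 0.77, 1.03 and 0.69 and limma adjusted p-values of 0.169, 0.160 and 0.148. In the same fit 19.5% of all tested genes passed, against 5.12% with all libraries. All 11 marrow markers, 5 of 11 osteoblast and osteocyte markers, 3 of 5 fibrocyte markers and 3 of 13 cochlear epithelium markers also passed there, against 2, 1, 0 and 1 with all libraries, and their part in the SLRP calls was not tested. With both WT1 and WT3 left out, 4 SLRPs passed (Dcn, Bgn, Omd and Aspn), and 16.1% of all genes did. Epyc then had a log2 fold change of -0.08. Fmod passed without KO4, with a log2 fold change of 0.45, and Epyc passed without WT4, with -0.62, in fits where 5.8% and 4.59% of all genes passed. In each setting tried, 8 to 11 of the 14 collagens passed, all higher in KO. Col1a1, Col1a2, Col3a1, Col5a1, Col5a2, Col6a1 and Col6a2 were among them each time. The share of all tested genes that passed ran from 2.32% without KO3 to 19.5% without WT1.

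**Figure D5:**
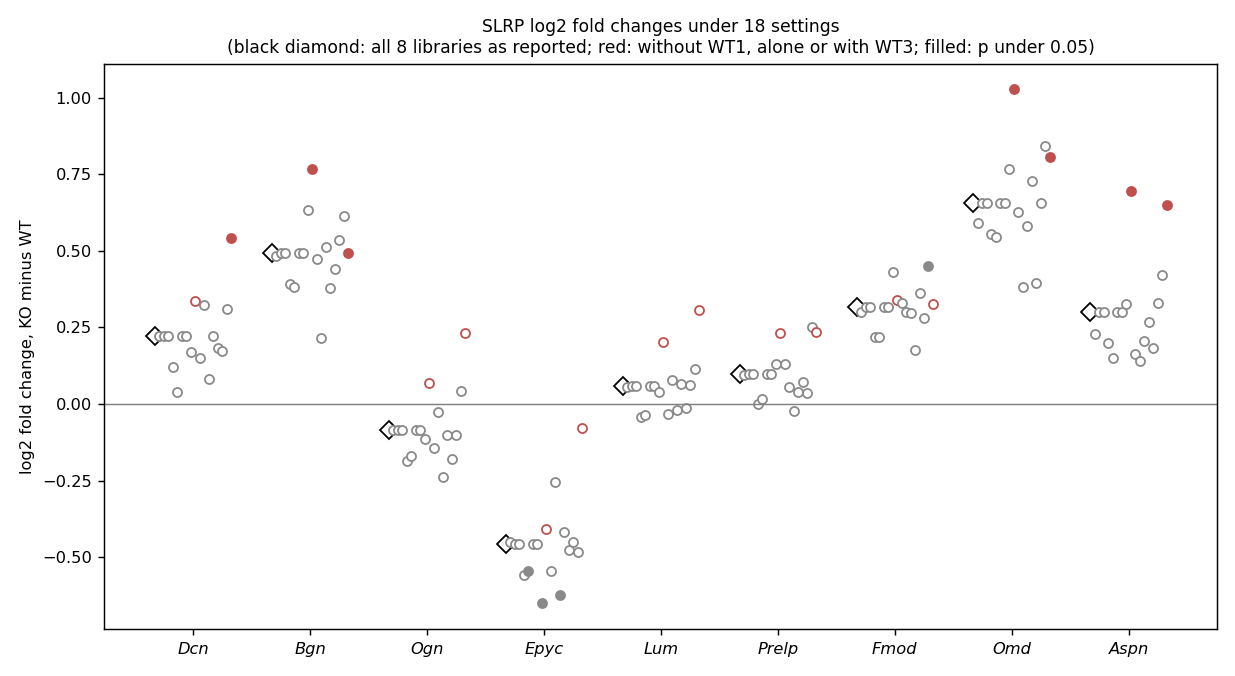
Log2 fold changes (vertical axis, KO minus WT) of the 9 tested SLRPs are shown under 18 settings, with the fit of all 8 libraries as black diamonds, fits without WT1 in red and filled points at an unadjusted p-value under 0.05. Omd, Bgn, Fmod, Aspn and Dcn stay above 0 and Epyc stays below 0 in all settings, whereas Lum, Prelp and Ogn fall on both sides of 0.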

How the data were processed

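The members were found by symbol, and they and the gene lists were chosen with earlier results of these data known. The authors removed ribosomal RNA, mapped paired-end reads with Hisat2 2.0.4 and deposited FPKM per gene and library. The tool and annotation behind the FPKM are not given in the sources used here. The submitters' processing notes name mm9, but the deposited coordinates are those of GRCm38 (19771 of 21760 genes found in GENCODE release 21 had the same ones). No sample column was left out (0 columns).

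FPKM are not counts, so log2(FPKM + 0.1) was tested with limma 3.58.1 (R 4.3.3), with genotype as the only factor and a mean-variance trend, over genes whose FPKM averaged 0.5 or more. The 8 libraries were used, and p-values measure the spread between them, which may be technical, since separate animals are not stated. Fragments per library were estimated from FPKM times transcript length. Of such products under 0.5, 32.7% to 39.9% lay within 0.03 of a whole multiple of the step, a window that covers 6% of all values, so single counts are estimates. On simulated data, 142 of 200 genes changed by 2 on the log2 scale were recovered at the adjusted threshold. The simulation held no shifts of whole libraries. The highest log2 fold change of the tested SLRPs was 0.66, and recovery of changes of that size was not simulated. All SLRPs were named, with the genes of other lists that passed and have the smallest p-values. Alternatives were a pseudocount of 1, other limits on low values, rescaling, no trend, the replicate block, 6 libraries and leaving out libraries.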

Additional observations from a re-analysis of the deposited data

Results flagged for a closer look

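The FPKM of Aspn in WT1, 8.58, stood apart from the other WT libraries (2.64 to 3.04), with a gap of 0.932 of the range of the group, above the critical value of Dixon's test. It was 1 of 28 groups of 4 libraries that were checked, and chance passes about 1 group in 20 (5%). In WT1, the summed FPKM of osteoblast and osteocyte markers was also the highest (655.6), and its part in the Aspn value was not tested.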

How the results depend on the processing

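Of the 9 tested SLRPs, 0 passed the unadjusted threshold with all libraries, and the number was 0 with a pseudocount of 1, a limit at a mean of 1, median-ratio scaling, no variance trend or the replicate block. Without the limit on low values, Kera was tested as well (10 SLRPs) and alone passed (1). The number was 1 with quantile normalization (Epyc), 1 in the 6 libraries (Epyc) and 4 with WT1 and WT3 left out, an alternative chosen after the data were seen. Leaving out single libraries gave 0 to 3. No SLRP passed the adjusted threshold in any of these fits. Among all genes, 767 passed, 347 to 2922 when single libraries were left out and 2430 with WT1 and WT3 left out. The share of higher genes among them fell from 90.1% to 52.5% with median-ratio scaling and to 40.9% with quantile normalization, which moved the median log2 fold change from 0.10 to 0.0043 and -0.037. The sign of Lum turned with median-ratio scaling (-0.043) and quantile normalization (-0.034), that of Prelp with median-ratio scaling (-0.00088) and that of Ogn with WT1 and WT3 left out (0.23). When single libraries were left out, Lum ran from -0.034 to 0.20, Prelp from -0.023 to 0.25 and Ogn from -0.24 to 0.068. The causes were not tested. The deviations of same-numbered WT and KO libraries correlated at 0.419, -0.240, -0.170 and 0.210. WT1 correlated best with KO1 and WT4 with KO4, while WT2 and WT3 also correlated best with KO4. Whether same-numbered libraries share more than a number was not tested. With the replicate block, 0 SLRPs and 838 genes passed. The depth behind Kera, at most 18 fragments in a library, limits its value, while Lum and Ogn rest on at least 1397 and 2122 fragments.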

Other observations

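The genes whose levels followed those of each SLRP most closely were taken by Pearson's r of log2(FPKM + 0.1) over the 8 libraries, among 14117 other genes whose FPKM averaged 1 or more. They are a description of so few libraries, in which WT1 and WT3 stand apart, and they carry no test. The closest gene was Flt4 for Bgn (r = 0.993, rho = 1.0), Isg20l2 for Omd (r = 0.996, rho = 0.976) and Eif3d for Aspn (r = 0.981, rho = 1.0). For Dcn it was Tns3 (r = 0.967, rho = 0.810), for Lum Atf6 (r = 0.977, rho = 0.976) and for Ogn Calcrl (r = 0.954, rho = 0.976). Fmod was followed most closely by Snrnp27 (r = 0.962, rho = 1.0) and then by Tgfb3 (r = 0.954, rho = 0.929), which encodes a ligand that SLRPs can bind. Prelp was followed by Zkscan6 (r = 0.972, rho = 0.976) and Epyc by Car13 (r = 0.945, rho = 0.905).

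Ratios between SLRPs within a library do not depend on the scaling of that library. The ratio of Epyc to Lum FPKM was 1.285, 1.59, 2.31 and 1.305 in WT1 to WT4 and 1.03, 0.993, 1.09 and 1.32 in KO1 to KO4, so that KO4 alone lay within the WT range. The ratio of Bgn to Dcn was 0.483, 0.383, 0.157 and 0.482 in WT and 0.527, 0.425, 0.341 and 0.388 in KO, and WT3 had the lowest value. The ratio of Omd to Ogn was 0.0755 in WT3, 0.161 to 0.241 in the other WT libraries and 0.212 to 0.360 in KO.

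The marker lists of other cell types give the setting of these values. Summed FPKM of 5 cochlear fibrocyte markers was 1328 to 2065 in WT and 1496 to 1951 in KO, and 0 of them passed the unadjusted threshold with limma. Coch made up most of this sum, with 1231 to 1927 in WT and 1433 to 1841 in KO. Log2 fold changes were 0.16 for Coch and 0.21 for Otos, but -0.54 for Otor, -0.24 for Pou3f4 and -0.32 for Tbx18. Of the 5, 2 passed with median-ratio scaling and 3 without WT1. Of 7 general fibroblast markers, Scara5 passed (log2 fold change 0.50, lost in 10 of 17 alternatives), and of 6 meningeal and 5 adipocyte markers 0 passed, whereas all 5 adipocyte markers passed in the 6 libraries numbered 1 to 3. Of 9 chondrocyte markers, 5 could be tested and 0 passed. Of 8 muscle markers 7 could be tested and Mb passed (2.60, lost in 10 of 17 alternatives), with a summed muscle FPKM of 336.8 in KO3 and at most 45.7 in the other libraries. Of 11 marrow markers, Vpreb1 and Igll1 passed (2.16 and 2.38), and all 11 passed without WT1, and of 13 cochlear epithelium markers Tectb passed, with a log2 fold change of -1.19.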
